A study of Tupaia belangeri with 15 samples.

Results

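MEGF10 and MEGF11 were followed across the gated cell classes of the tree shrew (TS, Tupaia belangeri) retina. Both were found by gene name among the 83605 features of each matrix, under the identifiers TSDBGID.12085 (MEGF10) and TSDBGID.21614 (MEGF11) of the TS_3.0 annotation, so that 2 features of 83605 are described. Another 9 features carry either name as antisense or long noncoding RNAs. The study profiled the nuclei of 15 whole TS retinas by droplet single-nucleus RNA sequencing (snRNA-seq), 5 at each of 3 stages that the labels call Infancy, Mature and Senile, each library from another animal. No treatment or genetic change was described, the infant and mature TSs came from 1 animal centre and the senile TSs from another institute, and the senile stage and its source therefore cannot be told apart, while infant and mature TSs share theirs.

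MEGF10 and MEGF11 encode transmembrane proteins with rows of EGF-like repeats, relatives of the engulfment receptors CED-1 of the worm and Draper of the fly. In the mouse retina they are known for spacing: starburst amacrine cells and horizontal cells carry them on their surface, like cells repel each other through them, and the cell bodies come to lie in regular mosaics. MEGF10 is also known from glia, where astrocytes use it to take up synapses. Starburst cells are the cholinergic amacrine cells (ACs) that feed direction-selective ganglion cells, and horizontal cells (HCs) give lateral feedback to photoreceptors. H1 and H2 are the HC types that LHX1 and ISL1, a pair of LIM homeodomain factors, mark respectively.

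The libraries held 13429873 to 58734300 unique molecular identifiers (UMIs, 1 per captured RNA molecule) in 4269 to 9856 barcodes, and 119765 of 120437 barcodes passed the filters. No pair of libraries shared more than 0.422% of the barcodes of the smaller one. The retinas fell into 2 sets. The files of 7 retinas (Infancy 1 to 3, Mature 1 and 2, Senile 1 and 2) name Cell Ranger 6.1.2 and have a median of 1461 to 3068 UMIs a nucleus. Those of the other 8 name version 7.0.1 and have 2268 to 5611. All 3 stages were present in both sets. The cone arrestin ARR3 had a UMI in 29.5% of starburst and 34.4% of H1 nuclei, so that RNA of other cells was present in both classes.

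Nuclei were assigned to 12 classes from marker genes, never from MEGF10 or MEGF11. The proposed gates could not carry the analysis. GAD1 had a UMI in 5.86% of GABAergic ACs other than starburst cells and GAD2 in 0% of these 4333 nuclei. CHAT with GAD1 or GAD2 thus found 52 nuclei in 13 retinas, and LHX1 with ONECUT2 found 115 nuclei in 11. Starburst nuclei were therefore taken as CHAT-positive nuclei with another cholinergic or GABAergic marker and an AC marker (1642 nuclei in 15 retinas), and H1 nuclei as nuclei led by ONECUT1, ONECUT2 and LHX1 without ISL1 (689 nuclei in 15 retinas). Markers that the starburst gate did not require went with its name. SOX2, a factor that starburst cells keep, had a UMI in 14.7% of starburst nuclei and 0.438% of other GABAergic ACs. ISL1, which starburst cells also carry, had a UMI in 60.4% and 2.70% of them. In H1 nuclei CALB1 (calbindin) had a UMI in 81.7% and the homeobox gene PROX1 in 76.2%, while LHX1 itself was seen in 20.0%. The shares of CALB1 and PROX1 were not set against H2 nuclei, so the H1 name rests on the gate and its lack of an ISL1 UMI.

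The levels of both genes set a few classes apart from the rest. Levels are given as CPM, the UMIs of a gene in every 1000000 UMIs of all nuclei of a class in a retina. The study itself named MEGF11 for starburst and H1 cells from these retinas, so the levels are a description without a test. MEGF11 was at 1055 ± 172 CPM in starburst nuclei and 804 ± 342 CPM in H1 nuclei (SD, n = 15 retinas each), and at most 36.5 ± 38.1 CPM in the other 9 classes with 15 retinas. Its starburst levels ran from 732 CPM over a median of 1105 to 1282 CPM, and its H1 levels from 164 over 784 to 1356 CPM. In every retina both classes lay above every one of the 9 classes below them. MEGF10 was spread otherwise: 309 ± 124 CPM in H1 nuclei, 256 ± 53.5 CPM in astrocytes, 200.2 ± 36.2 CPM in Müller glia and 59.0 ± 18.5 CPM in starburst nuclei (SD, n = 15 retinas each). Bipolar cells followed at 22.5 ± 7.18 CPM, and the lowest were cones at 5.76 ± 2.47 CPM. Among the classes compared, high MEGF11 was thus a trait of 2 neuron classes, and high MEGF10 one of H1 nuclei and of both macroglial classes. The other GABAergic and glycinergic ACs were gated to have no UMI of the cholinergic markers CHAT, SLC5A7 or SLC18A3. ACs that fell into none of the AC classes had 168 MEGF11 CPM when pooled (4118 nuclei in 15 retinas). The part of this gating in the low AC levels was not tested.

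**Figure D1:**
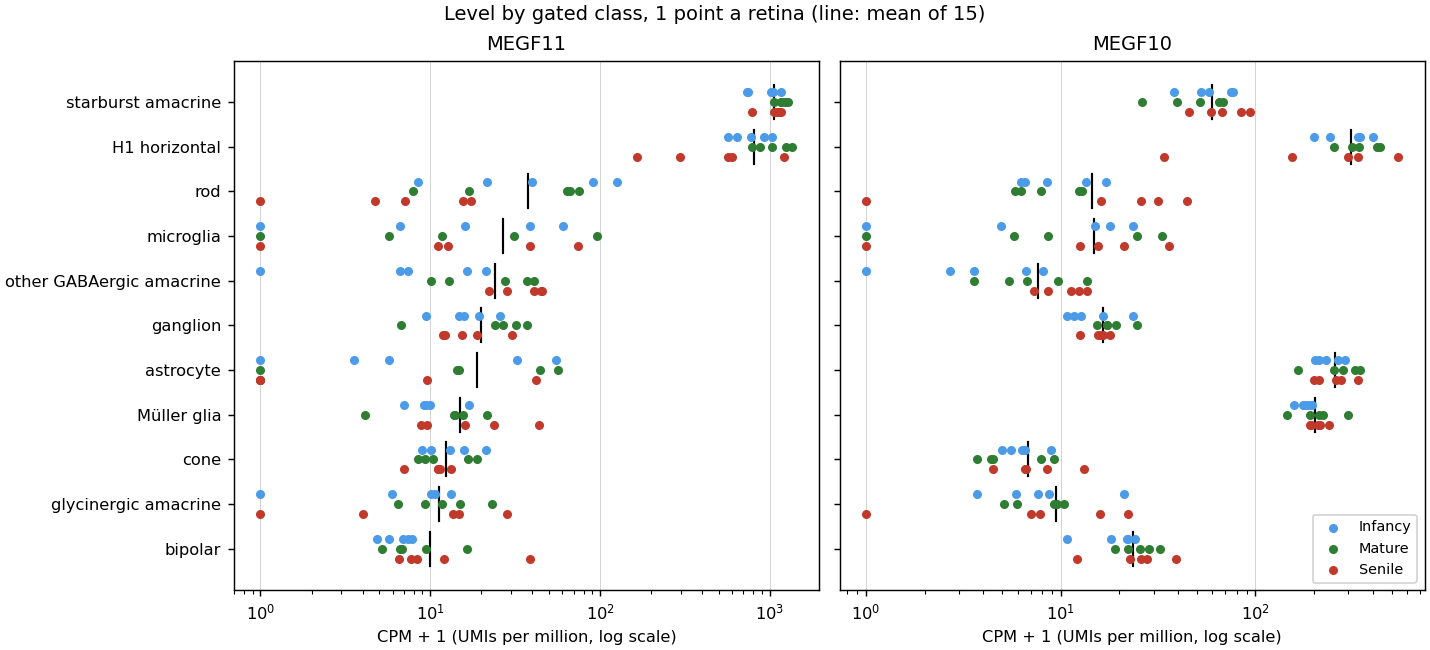
Level of MEGF11 (left) and MEGF10 (right) in 11 gated classes, as CPM + 1 on a log axis, with 1 point for each retina coloured by stage and a line at the mean of 15 retinas. MEGF11 separates starburst and H1 nuclei from the other 9 classes, and MEGF10 has its highest values in H1 nuclei, astrocytes and Müller glia.

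The order of the classes held up unevenly against the spread between retinas. For MEGF11, starburst nuclei exceeded H1 nuclei by 0.54 ± 0.83 on a log2 scale within a retina (SD, n = 15), in 11 of 15 retinas, which is less than the spread. H2 nuclei, which reached 10 nuclei in 2 retinas only, averaged 77.7 MEGF11 CPM in those 2, between H1 nuclei and rods, and were left out of the order. The step from H1 nuclei to rods, the next of the classes compared, was 5.16 ± 1.81 and had the same direction in 15 of 15 retinas. From rods downwards no neighbours differed by more than the SD of their difference: rods, microglia, other GABAergic ACs, ganglion cells (RGCs), astrocytes, Müller glia, cones, glycinergic ACs and bipolar cells averaged 9.03 to 36.5 CPM. For MEGF10, H1 nuclei and astrocytes did not differ beyond their spread (0.11 ± 0.96). Astrocytes exceeded Müller glia by 0.34 ± 0.24, in 14 of 15 retinas. Müller glia exceeded starburst nuclei by 1.80 ± 0.50 and starburst nuclei exceeded bipolar cells by 1.35 ± 0.69, each in 15 of 15 retinas. Below bipolar cells no step was larger than its SD.

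Per nucleus the picture was the same after depth was made equal. Each nucleus was thinned to 1000 UMIs, and the chance that it kept a UMI of the gene was averaged over a class. A MEGF11 UMI was then kept in 61.1% ± 6.44 of starburst and 50.8% ± 17.6 of H1 nuclei (SD, n = 15 retinas). In cones, which served as a class that should lack the gene, the share was 1.02% ± 0.378, and in Müller glia 0.892% ± 0.674. A MEGF10 UMI was kept in 27.0% ± 8.44 of H1 nuclei, 25.1% ± 5.32 of astrocytes, 19.1% ± 3.22 of Müller glia and 5.70% ± 1.75 of starburst nuclei, against 0.504% ± 0.240 of cones. Thinning left out 2 starburst, 7 H1, 46 astrocyte, 479 Müller and 398 cone nuclei with fewer UMIs. Before thinning, a MEGF11 UMI was seen in 85.7% of starburst nuclei (median depth 5270 UMIs), 74.5% of H1 nuclei (4492), 4.12% of cones (3271) and 2.08% of Müller glia (2330), and a MEGF10 UMI in 22.7%, 60.2%, 1.94% and 37.9% of them. The MEGF10 share of starburst nuclei thus stood above that of cones by both measures.

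**Figure D2:**
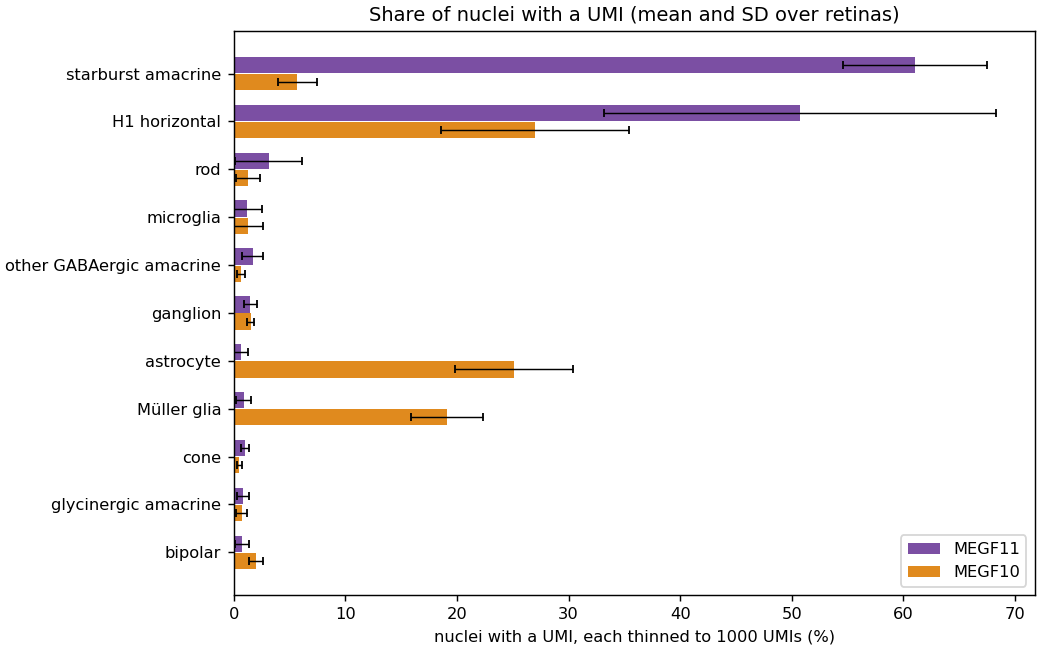
Share of nuclei (%) with a UMI of MEGF11 (purple) or MEGF10 (orange) in each class after every nucleus was thinned to 1000 UMIs. Bars give the mean and whiskers the SD over the retinas with 10 or more nuclei (15, or 14 for microglia), and MEGF11 stands out in starburst and H1 nuclei, MEGF10 in H1 nuclei, astrocytes and Müller glia.

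A small part of the nuclei held much of the MEGF11 RNA. Starburst nuclei were 1.38% of all nuclei and held 35.4% ± 12.8 of the MEGF11 UMIs of a retina (mean and SD of 15 retinas, range 12.3% to 59.3%), and H1 nuclei were 0.571% and held 8.16% ± 5.11. Müller glia were 5.91% of nuclei and held 26.7% ± 4.53 of the MEGF10 UMIs, and astrocytes were 1.08% and held 7.24% ± 2.11. Of the 2019 nuclei with 5 or more MEGF11 UMIs, 935 were starburst and 237 were H1 nuclei. Low class levels could also come from few nuclei. In astrocytes 7 nuclei held 63 of the 97 MEGF11 UMIs, and in microglia 4 nuclei held 59 of 85. Whether such nuclei were doublets was not tested.

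HC nuclei were also split by the ISL1 and LHX1 UMIs that set H1 apart from H2 nuclei. In pooled HC nuclei, those without ISL1 and with LHX1 (138 nuclei) had 938 MEGF11 CPM (exact 95% Poisson interval 871 to 1009) and 393 MEGF10 CPM (349.9 to 439.9). Those without either marker (551 nuclei) had 762 MEGF11 CPM (729 to 795) and 291 MEGF10 CPM (270.4 to 312). With 1 ISL1 UMI (102 nuclei) the levels were 183 MEGF11 CPM (153 to 218) and 76.2 MEGF10 CPM (57.2 to 99.4), with 2 (44 nuclei) 252.3 MEGF11 CPM (204 to 309) and 81.4 MEGF10 CPM (54.9 to 116), and with 3 or more (44 nuclei) 125 MEGF11 CPM (94.2 to 162) and 44.6 MEGF10 CPM (27.2 to 68.8). HC nuclei with ISL1 were therefore lower in both genes than HC nuclei without it. These intervals cover counting error only, the nuclei came unevenly from 11 to 15 retinas, and no test was made.

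The H2 class itself, HC nuclei with at least 2 ISL1 UMIs and no LHX1, had 84 nuclei in 13 retinas and reached 10 nuclei in 2 of them. Its pooled level was 182 MEGF11 CPM (153 to 215) and 63.8 MEGF10 CPM (47.2 to 84.3). The 2 retinas with at least 10 nuclei, Mature 3 and Senile 5, had 140.6 and 14.9 MEGF11 CPM, and single retinas ran from 0 to 894 CPM. The highest, Mature 5, gave 44 of the 140 MEGF11 UMIs from 4 nuclei. A UMI of each gene was seen in 29.8% of H2 nuclei at a median depth of 7874 UMIs, and 11 nuclei held 117 of the 140 MEGF11 UMIs of the class. MEGF11 in H2 nuclei was thus concentrated in few of them.

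In starburst nuclei the pooled MEGF11 level was higher at higher CHAT counts. Nuclei with 1 CHAT UMI had 912 MEGF11 CPM (886 to 939, 914 nuclei), those with 2 had 1084 MEGF11 CPM (1045 to 1125, 420 nuclei) and those with 3 or more had 1340 MEGF11 CPM (1295 to 1386, 308 nuclei). MEGF10 stood at 52.4 CPM (46.2 to 59.1), 61.9 CPM (52.7 to 72.2) and 61.4 CPM (52.0 to 71.9) in the same nuclei, with overlapping intervals. Median depth rose along the same steps, from 4310 over 5314 to 7723 UMIs, and retinas gave unequal shares of the nuclei to each step. Within a retina, nuclei with 2 or more CHAT UMIs exceeded those with 1 in MEGF11 by 0.35 ± 0.32 on the log2(CPM + 1) scale (SD, n = 15), in 14 of 15 retinas, all but Senile 2, which had 4 nuclei with 2 or more. MEGF10 was higher in 8 of 15. Median depth was also higher in the nuclei with 2 or more in 12 of 15 retinas, and its part in the MEGF11 values was not tested. The gate of CHAT with GAD1 or GAD2 gave lower pooled levels, 828 MEGF11 CPM (741 to 923) and 20.2 MEGF10 CPM (8.72 to 39.8, from 8 UMIs), than all starburst nuclei at 1061 MEGF11 CPM (1041 to 1081) and 57.0 MEGF10 CPM (52.5 to 61.9). The gate of LHX1 with ONECUT2 gave 821 MEGF11 CPM (759 to 888) and 328 MEGF10 CPM (289 to 371), and all H1 nuclei had 801 MEGF11 CPM (772 to 832) and 314 MEGF10 CPM (295 to 333), with overlapping intervals.

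**Figure D3:**
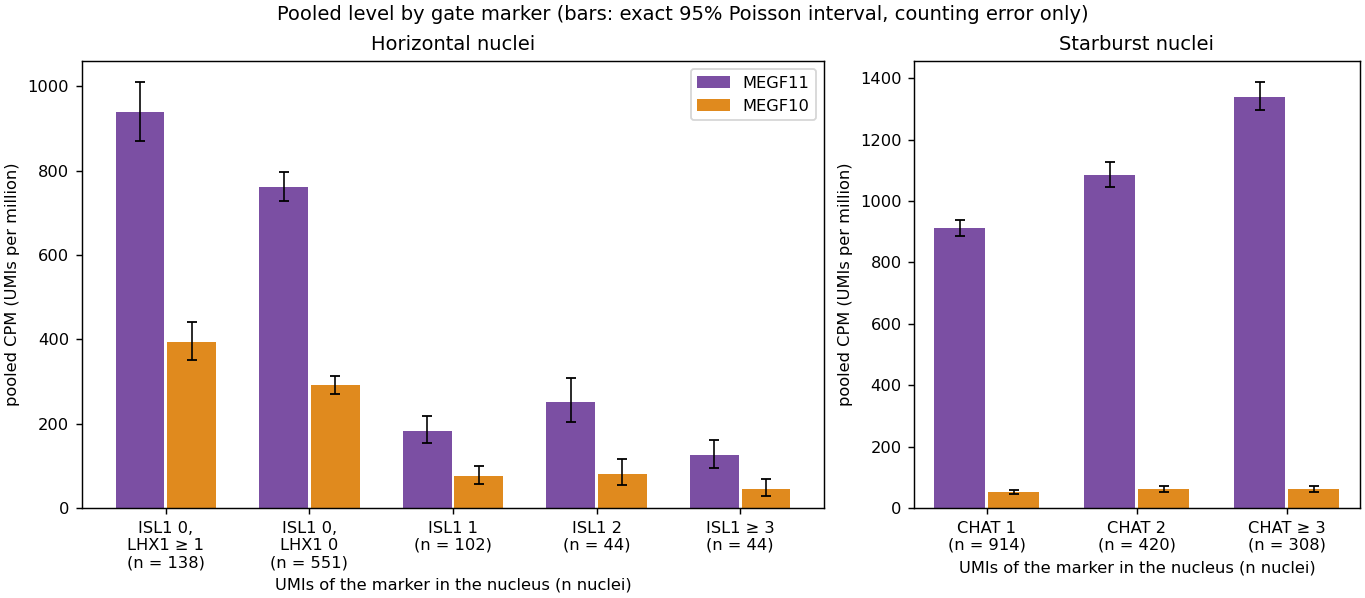
Pooled CPM of MEGF11 (purple) and MEGF10 (orange) in HC nuclei split by their ISL1 and LHX1 UMIs (left) and in starburst nuclei split by their CHAT UMIs (right), with exact 95% Poisson intervals and the number of nuclei. In HC nuclei both genes are lower where an ISL1 UMI is present than where it is not, and MEGF11 is higher in starburst nuclei with more CHAT UMIs.

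Starburst and H1 nuclei differed in how the 2 genes were weighed against each other. The balance was taken as log2 of (MEGF11 CPM + 1) over (MEGF10 CPM + 1) in each retina. Gene length and intron content enter both genes' counts, so its size in 1 class is not read and only its difference between classes is. It was 4.19 ± 0.53 in starburst and 1.40 ± 0.47 in H1 nuclei (SD, n = 15), and was higher in starburst nuclei in 15 of 15 retinas. The difference within a retina was 2.79 ± 0.65, from 1.303 in Senile 2 to 4.13 in Mature 4 (exact two-sided sign-flip test over 15 retinas, p = 6.1e-05, the smallest value such flips can give, and 0.000244 after Benjamini-Hochberg adjustment over 4 tests of this kind). In the 7 retinas of version 6.1.2 it was 2.37 ± 0.56 and in the 8 of version 7.0.1 it was 3.16 ± 0.49. It was 2.61 ± 0.24 in infant, 3.06 ± 0.64 in mature and 2.70 ± 0.93 in senile retinas (SD, n = 5 each). The value of Senile 2 rested on 5 MEGF11 UMIs and 1 MEGF10 UMI in its H1 nuclei.

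**Figure D4:**
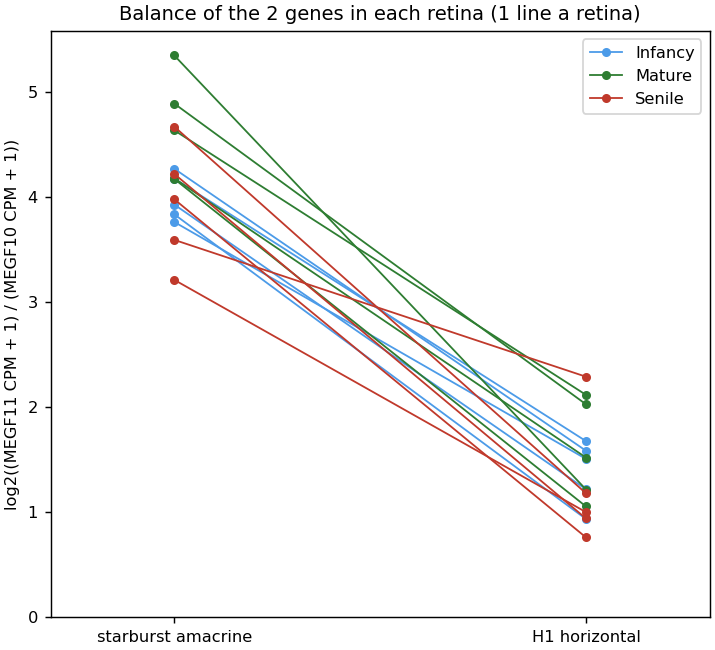
Balance of the genes, log2 of (MEGF11 CPM + 1) over (MEGF10 CPM + 1), in starburst and H1 nuclei of each retina, with 1 line a retina coloured by stage. All 15 lines fall from starburst to H1 nuclei, by 2.79 on average.

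No stage change passed the test in starburst nuclei. MEGF11 was at 1038, 1019.7, 732, 746 and 1162 CPM in the infant retinas 1 to 5, at 1282, 1169, 1166, 1058 and 1227 CPM in the mature ones and at 779.7, 1126, 1157, 1105 and 1056 CPM in the senile ones. Of the mature values 4 lay above every infant value, Senile 1 lay apart from the other senile retinas, and the stages overlapped. With edgeR's quasi-likelihood test on counts summed per retina, the log2 change of MEGF11 was 0.28 ± 0.14 (SE) from infancy to maturity, with a 95% interval of -0.02 to 0.58 (adjusted p = 0.856 over 7382 genes). From infancy to the senile stage it was 0.04 ± 0.14 (-0.26 to 0.35, adjusted p = 1.00), and from maturity to the senile stage -0.24 ± 0.14 (-0.54 to 0.07, adjusted p = 1.00). Neither of the 2 members passed an adjusted p of 0.05 in these contrasts, in which 0.271%, 0.325% and 0% of all tested genes passed. In the last contrast 375 genes were under 0.05 before adjustment, and 0 were called by DESeq2. The interval for the senile change excluded a doubling or a halving of MEGF11 in starburst nuclei.

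MEGF10 in starburst nuclei was sparse, with 6 to 90 UMIs a retina. It stood at 56.6, 74.3, 37.0, 51.4 and 75.4 CPM in the infant retinas, at 50.6, 63.9, 38.4, 25 and 66.9 CPM in the mature ones and at 83.4, 92.5, 44.5, 58.4 and 66.1 CPM in the senile ones. The ranges overlapped at all stages, with the lowest value in Mature 4 and the highest in Senile 2, whose 35 nuclei held 6 UMIs. The log2 changes were -0.31 ± 0.26 (mature against infant), 0.03 ± 0.28 (senile against infant) and 0.35 ± 0.28 (senile against mature), with intervals of -0.86 to 0.23, -0.55 to 0.62 and -0.25 to 0.94 (edgeR adjusted p = 0.919 to 1.00). On the log2(CPM + 1) scale the senile minus infant difference of MEGF10 was 0.70 in the version 6.1.2 retinas and -0.16 in the version 7.0.1 retinas, so it had no common direction. The MEGF11 difference between maturity and infancy was 0.41 and 0.30 in the same sets. The balance of the genes in starburst nuclei was 3.99 ± 0.22 in infant and 3.93 ± 0.56 in senile retinas (SD, n = 5 each), a difference of -0.06 (exact two-sided permutation test, p = 0.825, where the smallest possible value is 0.00794). In mature retinas it was higher on average, at 4.64 ± 0.50 (SD, n = 5). The mature values ran from 4.17 to 5.35, the infant ones from 3.76 to 4.27 and the senile ones from 3.21 to 4.67. No contrast of the balance with the mature stage was tested.

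In H1 nuclei the senile retinas were spread widely. MEGF11 was at 769, 569.1, 1024, 641 and 927 CPM in the infant retinas 1 to 5, at 1356, 877, 1024, 784 and 1247 CPM in the mature ones and at 598, 164, 1219, 295 and 568.6 CPM in the senile ones. Senile 2, Senile 4 and, by a small margin over Infancy 2 (569.1 CPM), Senile 5 lay below every infant and mature value. Senile 1 also lay below every mature value, so that 4 of 5 senile retinas did, and Senile 3 alone overlapped with the mature group. The Senile 2 value rested on 5 MEGF11 UMIs in 16 nuclei. The log2 change was 0.43 ± 0.33 from infancy to maturity (-0.27 to 1.13), -0.56 ± 0.35 from infancy to the senile stage (-1.29 to 0.18) and -0.99 ± 0.35 from maturity to the senile stage (-1.72 to -0.26). None passed after adjustment over 2828 genes (edgeR adjusted p = 0.999, 0.884 and 0.974, unadjusted p = 0.0109 for the last). Of all genes 0.0354%, 0.0354% and 0% passed in these contrasts. In the last of them 125 genes were under 0.05 before adjustment, and 1 was called by DESeq2.

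MEGF10 followed the same retinas. It was at 240.2, 199.96, 341, 335 and 399 CPM in the infant H1 nuclei, at 312, 422, 251, 338 and 435 CPM in the mature ones and at 299, 32.8, 539, 153 and 336 CPM in the senile ones. Senile 2 and Senile 4 again lay below all infant and mature retinas, and Senile 3 lay above them. The value of Senile 2 came from 1 MEGF10 UMI in 16 nuclei. The log2 changes were 0.19 ± 0.36, -0.24 ± 0.38 and -0.43 ± 0.37 for the same contrasts, with intervals of -0.57 to 0.95, -1.04 to 0.56 and -1.22 to 0.35 (edgeR adjusted p = 0.974 to 0.999).

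The size of the H1 differences moved with single retinas in both directions. With 1 retina left out in turn, the change of MEGF11 ranged from -0.94 (without Senile 3) to -0.36 (without Senile 2) from infancy to the senile stage, and from -1.39 to -0.80 without the same retinas from maturity. That of MEGF10 ranged from -0.49 to -0.043 and from -0.69 to -0.24, again without Senile 3 and Senile 2, and from 0.063 (without Infancy 2) to 0.32 (without Infancy 5) between infancy and maturity. None of these fits passed the test. Without Senile 2 and Senile 4, a choice made after the values were seen, the change of MEGF11 was -0.06 from infancy and -0.51 from maturity, and that of MEGF10 was 0.26 and 0.05. Senile 2 had 16 H1 nuclei with a median of 1299 UMIs, of which 0% had an LHX1 UMI and 8 a CALB1 UMI. Senile 4 had 69 nuclei with a median of 2748 UMIs, of which 10.1% had an LHX1 UMI and 56.5% a CALB1 UMI. In the other 13 retinas LHX1 was seen in 4.76% to 34.3% and CALB1 in 58.8% to 94.9% of H1 nuclei, so that the CALB1 share lay below this range in both and the LHX1 share in Senile 2 alone. As a level, CALB1 was at 459 CPM in Senile 2, within the 367 to 959 CPM of the 13 retinas. In Senile 4 it was at 335 CPM, below them. The other HC markers of Senile 4 lay within the range of the 13 retinas, with ONECUT1 at 779 CPM (470.3 to 943), PROX1 at 492 CPM (338 to 664) and TFAP2B at 299 CPM (116 to 424). In Senile 2 ONECUT1 (688 CPM) and PROX1 (459 CPM) also did, while TFAP2B was at 0 CPM. Markers of other cell types were also present in H1 nuclei. The bipolar marker CA10 was at 482 to 897 CPM in the 5 senile retinas (721 CPM in Senile 2 and 867 CPM in Senile 4), 233 to 469 CPM in the infant and 126 to 678 CPM in the mature ones, so that the senile and infant ranges did not overlap. Senile 2 held the highest levels of the cone marker ARR3 (950.4 CPM, in 6.25% of its nuclei) and of the ganglion cell markers SLC17A6 (262 CPM, in 31.2%) and RBPMS (131 CPM) among the H1 sets, while Senile 4 lay within the range of the others for these 3 genes. The rod marker ESRRB (65.5 and 202 CPM) and the glial marker TF (32.8 and 40.3 CPM) of Senile 2 and Senile 4 lay within the range of the others. Among H1 nuclei with a CALB1 UMI, MEGF11 was at 268 CPM in the 39 nuclei of Senile 4 and 907 CPM in the 516 nuclei of the other 13 retinas. Among those without one it was at 346 CPM in 30 nuclei of Senile 4 and 465 CPM in 88 nuclei of the others, so that MEGF11 was lower without CALB1 in the other 13 retinas but not in Senile 4. The part of these markers, of depth and of the mix of the gate in the senile values was not tested. On the log2(CPM + 1) scale the MEGF11 difference between senile and mature retinas was -1.80 in the version 6.1.2 set (2 against 2) and -0.76 in the version 7.0.1 set (3 against 3).

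**Figure D5:**
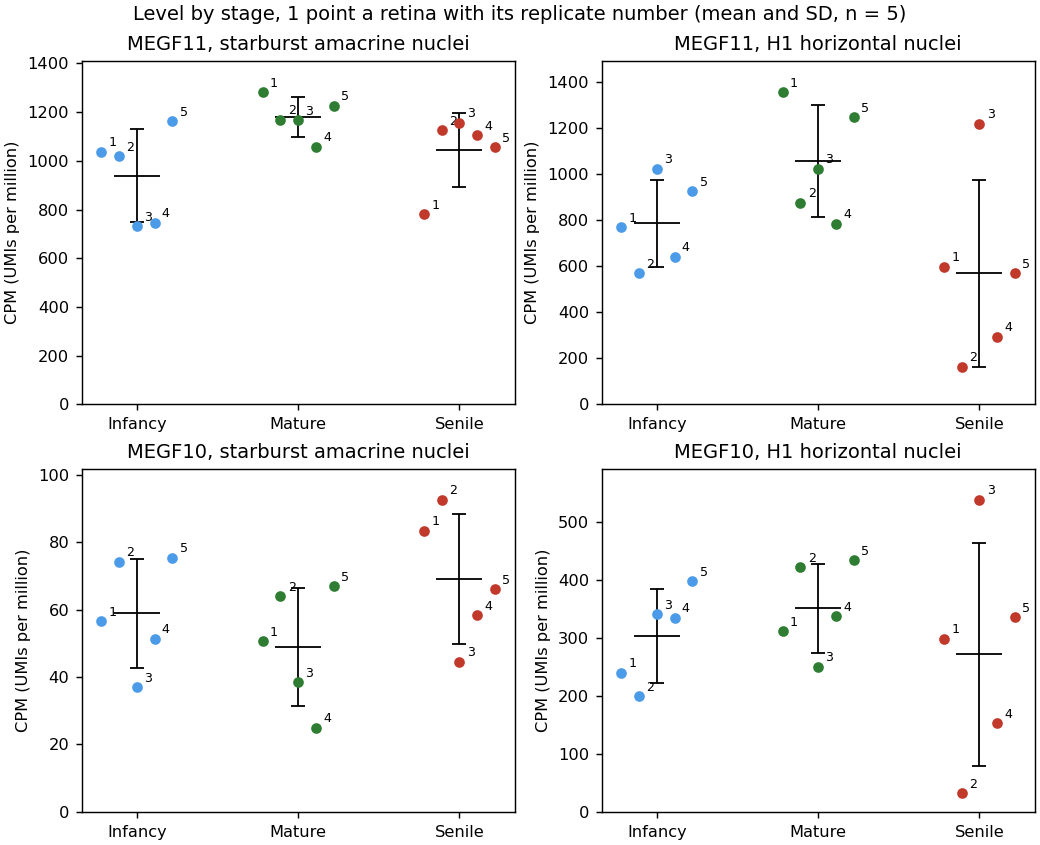
CPM of MEGF11 (top) and MEGF10 (bottom) in starburst nuclei (left) and H1 nuclei (right) by stage, with 1 point for each retina marked by its replicate number, and the mean and SD of 5 retinas. The stages overlap in all 4 panels, and Senile 2 and Senile 4 are the lowest points of both H1 panels.

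Whether the stage changes differed between H1 and starburst nuclei was tested on the difference of log2(CPM + 1) between the classes within a retina. For MEGF11 this difference was -1.18 in senile, -0.19 in mature and -0.27 in infant retinas on average. Its shift was -0.91 from infancy and -0.99 from maturity to the senile stage (exact two-sided permutation tests of 5 against 5 retinas, p = 0.159 and 0.119). For MEGF10 the shifts were -0.82 and -1.35 (exact p = 0.460 and 0.135). None of the 6 comparisons passed, with adjusted p of 0.274 or more.

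In glia the MEGF10 values of the stages overlapped. In Müller glia MEGF10 was at 179 ± 14.2 CPM in infant, 213 ± 56.0 CPM in mature and 209 ± 19.7 CPM in senile retinas (SD, n = 5), from 145 CPM in Mature 4 to 298 CPM in Mature 5. The log2 changes were 0.21 ± 0.17, 0.13 ± 0.17 and -0.08 ± 0.17, the widest of their intervals being -0.14 to 0.57 (edgeR adjusted p = 0.810 to 1.00, where 0.512%, 0.691% and 0.00898% of all genes passed). In astrocytes it was at 238 ± 35.7, 273 ± 70.4 and 256 ± 55.1 CPM at the 3 stages (SD, n = 5), and the log2 changes were 0.10 ± 0.20, -0.06 ± 0.21 and -0.16 ± 0.21 (edgeR adjusted p = 0.995 to 1.00, where 0.0879%, 0.242% and 0% passed). These intervals leave out a doubling in either class.

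In the other 5 fitted classes with a member the share of all genes that passed, in the order mature against infant, senile against infant and senile against mature, was 0.533%, 0.96% and 0% in bipolar cells, 0.434%, 0.907% and 0% in RGCs, 0.983%, 1.27% and 0% in cones, 0.08%, 1.04% and 0.0534% in rods and 0.0487%, 0.448% and 0% in other GABAergic ACs. Across all classes 45 combinations of class, gene and contrast could be fitted, MEGF11 in 8 classes and MEGF10 in 7. Neither gene passed the filter on low counts in glycinergic ACs and microglia. An adjusted p under 0.05 was reached in 0 of the 45 with edgeR, against 5 with an unadjusted p under 0.05, and in 0 of 27 with DESeq2 in the 6 classes where it was run. Besides H1 nuclei, the 5 came from rods and other GABAergic ACs. In rods 618 of all 3748 genes were under 0.05 before adjustment from infancy to the senile stage, and 579 from maturity. In other GABAergic ACs 686 of all 10263 genes were from infancy to maturity, and 570 from infancy to the senile stage. In rods MEGF11 was at 38.7, 125, 7.45, 20.5 and 89.7 CPM in infancy, 63.0, 6.90, 73.7, 15.9 and 65.5 CPM at maturity and 0, 14.6, 16.5, 6.13 and 3.76 CPM in the senile retinas, with a log2 change of -2.83 ± 0.89 from infancy (unadjusted p = 0.0051, adjusted p = 0.119). It rested on 5 UMIs in 210 senile rods, against 88 UMIs in 445 infant ones, and the stages overlapped. Of the infant and mature rods 6 and 7 nuclei had 3 or more MEGF11 UMIs, and none of the 210 senile rods did. These nuclei held 27 of the 88 infant and 49 of the 94 mature MEGF11 UMIs, and also 13 of the 27 infant and 9 of the 13 mature UMIs of the starburst marker SLC5A7 in rods. The rod markers ESRRB and NRL were also seen in fewer senile rods (51.0% and 43.3%) than in infant rods (72.6% and 58.0%), and the part of either set of markers was not tested. In other GABAergic ACs MEGF11 ran from 0 to 20.2 CPM in infant, 9.10 to 40.1 CPM in mature and 21.3 to 44.7 CPM in senile retinas. The infant and senile ranges did not overlap, but the log2 change of 1.69 ± 0.54 did not pass (edgeR unadjusted p = 0.0064, adjusted p = 0.427, where 0.448% of all genes passed). In that class 29 of 4333 nuclei held 197 of the 415 UMIs.

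Within single nuclei MEGF10 and MEGF11 were found together slightly more often than expected within depth classes, a difference that passed the test in H1 but not in starburst nuclei. Whether the classes differ in it was not tested. Expected counts were taken within 5 depth classes of each retina. Depth still varied inside these depth classes, and its remaining part was not tested. In starburst nuclei 355 nuclei had UMIs of both, against 325 expected, and the log2 ratio was 0.08 ± 0.17 (SD, n = 15), positive in 12 of 15 retinas (exact two-sided sign-flip test, p = 0.0829, adjusted p = 0.111). The lowest ratio, -0.45, came from 3 nuclei of Senile 2, and without that retina the mean was 0.12 with p = 0.000854 in the same exact test. In H1 nuclei, tested after the starburst values were seen, 373 nuclei had both against 331 expected. The log2 ratio was 0.13 ± 0.18, positive in 11 of 15 retinas (exact sign-flip test, p = 0.00317, adjusted p = 0.00635), and 0.08 with p = 0.125 in the same exact test in the 8 retinas that the stricter gate left. The ratio was highest in Senile 4 (0.66) and Senile 5 (0.34). It was 0.04 ± 0.07 in the version 6.1.2 and 0.20 ± 0.22 in the version 7.0.1 retinas. The part of the mix of nuclei within the starburst and H1 gates was not tested.

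The noncoding features named after the genes had low counts. MEGF11-AS-1, -3, -4 and -5 together with LINC-MEGF11-1 had 7 to 60 UMIs each in starburst and H1 nuclei. LINC-MEGF11-1 had 60 UMIs in starburst and 16 in H1 nuclei of 140 in all nuclei, MEGF11-AS-4 had 52 and 14 of 91, and MEGF11-AS-2 had 0 of all UMIs. MEGF10-AS-1 had 36 of its 134 UMIs in Müller glia, 11 each in H1 nuclei, astrocytes and bipolar cells and 7 in starburst nuclei. Strand use in the authors' counting is not given in the sources used here. How fully reads of a gene and its antisense partner were separated was not tested, and these counts are uncertain.

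Genes with the most similar pattern were sought over 167 sums of retina and class, among 9180 genes. The sums share libraries and depth, so the coefficients are descriptions across classes and not tests. Nearest to MEGF11 were CHST8, a carbohydrate sulfotransferase (Pearson r = 0.77), SEZ6L (0.73), RNF157 (0.62), FRMD7, known from hereditary nystagmus (0.61), and DUSP10, a MAP kinase phosphatase (0.61). CHST8 was at 61.9 CPM in starburst and 37.2 CPM in H1 nuclei, against 2.12 CPM in rods. SEZ6L was at 2047, 549 and 52.5 CPM in the same classes, but also at 488 CPM in H2 nuclei, 269.5 CPM in ganglion cells, 205 CPM in other GABAergic ACs and 148 CPM in glycinergic ACs. FRMD7 was higher in H2 (38.8 CPM) than in H1 nuclei (10.1 CPM), while the other genes nearest to MEGF11 were higher in H1 nuclei. Nearest to MEGF10 were the formin DAAM2 (0.77), the collagen chain COL9A1 (0.76), the adhesion molecule CHL1 (0.74), STARD13 (0.73), and CRIM1 (0.71). DAAM2 was at 55.7 CPM in astrocytes, 44.8 CPM in Müller glia, 34.4 CPM in H1 nuclei and 0.782 CPM in starburst nuclei. In H2 nuclei, averaged over 2 retinas, DAAM2 (5.41 CPM) and MEGF10 (58.1 CPM) were lower than in H1 nuclei. COL9A1, CHL1, STARD13 and CRIM1 were higher there, at 322, 909, 221 and 277 CPM against 206, 578, 192 and 202 CPM in H1 nuclei. MEGF10 and MEGF11 themselves correlated at r = 0.35.

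Other genes of engulfment and cell spacing were read from lists of 28 and 20 genes, of which 26 and 17 were found by name. The examples were chosen after their levels were seen. The adaptor GULP1, which binds CED-1 relatives, was at 24.5 ± 14.97 CPM in starburst and 29.0 ± 45.7 CPM in H1 nuclei (SD, n = 15 retinas, as for all values that follow). Müller glia had 168 ± 47.99 CPM of GULP1, and its highest levels were those of rods (353 ± 96.9 CPM) and RGCs (294 ± 49.2 CPM). The phagocytic receptor MERTK was at 261 ± 34.8 CPM in Müller glia and 698 ± 257 CPM in microglia, and at 6.37 ± 5.64 and 11.3 ± 9.65 CPM in starburst and H1 nuclei. PEAR1 and MEGF6, which are close in build to the MEGF receptors, averaged no more than 0.513 CPM in any class.

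Of the spacing genes, the adhesion molecule SDK1 was at 1100.4 ± 289.9 CPM in starburst and 70.6 ± 64.9 CPM in H1 nuclei, and the contactin CNTN5 at 2975 ± 514 and 729 ± 423 CPM. DSCAM, which spaces amacrine cells of the mouse retina, was at 524 ± 147 CPM in starburst and 2028 ± 344 CPM in H1 nuclei, with 1679 ± 173 CPM in other GABAergic ACs. The semaphorin SEMA6A was at 38.6 ± 18.8 CPM in starburst and 871 ± 210.3 CPM in H1 nuclei. The mean levels of SDK1 and CNTN5 were thus higher in starburst nuclei and those of DSCAM and SEMA6A in H1 nuclei, while MEGF11 was high in both.

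No listed gene passed between stages in starburst or H1 nuclei. In starburst nuclei 12 engulfment and 14 spacing genes could be tested and in H1 nuclei 6 and 12, and 0 of them reached an edgeR adjusted p of 0.05 in any of the 3 contrasts. DESeq2 also called 0, and an unadjusted p under 0.05 was reached by 0 to 3 of a list in a contrast. The highest counts in these 2 classes were 3 of 12 engulfment genes in starburst nuclei (senile against mature), where 375 of all 7382 genes did, and 2 of 12 spacing genes in H1 nuclei (mature against infant), where 141 of all 2828 did. The median log2 change was -0.02, 0.04 and 0.05 for engulfment and 0.05, -0.09 and -0.12 for spacing genes in starburst nuclei, beside -0.01, -0.03 and -0.01 over all tested genes. In H1 nuclei it was 0.01, -0.26 and -0.14 and 0.18, 0.11 and -0.15, beside 0.02, -0.01 and -0.01. Among the other classes 1 engulfment gene passed with edgeR, in cones, where it was higher in mature than in infant retinas. It was 1 of 17 tested there, and 0.983% of all genes passed. An unadjusted p under 0.05 was most frequent in rods, for 6 of 9 spacing genes (senile against infant), where 618 of all 3748 genes did.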

How the data were processed

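Frozen retinas were homogenised and nuclei were sequenced with a 10x Genomics 3′ kit (v2 per the labels, another version per the methods). The authors deposited raw counts, the UMI counts per gene and barcode made with Cell Ranger against TS_3.0. The version is 5.0.1 (7 libraries) or 7.0.1 (8 libraries) in the submitters' processing notes and 6.1.2 or 7.0.1 in the file headers. Whether intronic reads were counted is not given in the sources used here, which can shift the counts of genes with long introns between the 2 sets.

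Barcodes with over 200 and under 6000 genes were kept if under 5% of their UMIs came from the mitochondrial feature MT-ND1li1. Other mitochondrial features did not enter this share. A class other than starburst needed 2 of its markers, an enrichment of 2 over the retina's share and 3 times that of the next class. Starburst nuclei, set by the markers named above, could be led by AC markers or fail this rule. They were kept only where no class but ACs reached an enrichment of 2 with 2 of its markers. The starburst and H1 gates thus differed in strictness. Other GABAergic and glycinergic ACs were allowed no UMI of CHAT, SLC5A7 or SLC18A3. Nuclei with no class were 44.9% of all. No doublet caller was run. The planned starburst and H1 gates were replaced after marker counts, but not MEGF10 or MEGF11 counts, had been seen. Counts were summed per retina and class (10 nuclei or more) and tested with edgeR 4.0.16 (TMM, filterByExpr, quasi-likelihood, no covariate) over all genes, with DESeq2 1.42.0, other gates, left-out retinas, a version term and a replicate block as alternatives. Standard errors were derived from the F statistics. In simulated counts 41% of genes changed 2-fold and 85% of those changed 4-fold were found in starburst nuclei, over 6941 genes, and 43% and 91% in H1 nuclei, over 2736. Among the unchanged genes 6 were falsely called in starburst and 9 in H1 nuclei. Exact tests and thinning used scipy 1.17.1. Replicates are separate animals. The Poisson intervals of pooled levels cover counting error only. Those of the stage changes come from the edgeR fits and include the spread between retinas. Whole-retina nuclei do not show whether a class lost nuclei or RNA per nucleus.

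The members, the lists and the tests were chosen with earlier results of these data known. Named besides the members are the 5 genes nearest to each by Pearson r, over genes with 10 CPM in a class and without gate markers, antisense, LINC and numbered features, check markers, and list genes past the threshold in starburst or H1 nuclei. The list genes named by level, rods and other GABAergic ACs were chosen after their values were seen. Sequences of the genes are not used here.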

Additional observations from a re-analysis of the deposited data

Results flagged for a closer look

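In groups of 5 retinas, 66 groups of class, gene and stage were searched for a value far from the other 4, which chance gives in about 1 of 20 groups, and 4 were found. MEGF11 in starburst nuclei of Senile 1 was at 779.7 CPM (159 UMIs in 56 nuclei), below the 1056 to 1157 CPM of the other senile retinas. MEGF11 in bipolar cells of Senile 2 was at 37.7 CPM (17 UMIs in 418 nuclei), above 5.51 to 10.99 CPM. MEGF11 in astrocytes of Senile 5 was at 41.2 CPM (15 UMIs in 77 nuclei), above 0 to 8.56 CPM. MEGF10 in glycinergic ACs of Infancy 2 was at 20.2 CPM (11 UMIs in 230 nuclei), above 2.73 to 7.73 CPM.

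Nuclei outside the compared classes also held MEGF11, which set them apart for a second look. Nuclei with no class held 27.7% of all MEGF11 UMIs, and 440 of them had 5 or more. Of these 440, 78.0% had a UMI of CHAT, SLC5A7 or SLC18A3 and 25.7% one of ONECUT1 or ONECUT2, against 9.54% and 4.67% of the 50824 nuclei with no class and no MEGF11 UMI, whose median depth was lower (2565 against 4252 UMIs). ACs that were neither starburst, other GABAergic nor glycinergic by the gates held 10.8%, and 93.3% of their 269 nuclei with 5 or more MEGF11 UMIs had a UMI of CHAT, SLC5A7 or SLC18A3, against 18.1% of those with none. ACs with a UMI of these markers that were not starburst nuclei fell into this group by rule, so both shares partly follow from the gates.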

How the results depend on the processing

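The stage changes of MEGF10 and MEGF11 in starburst and H1 nuclei, of MEGF10 in Müller glia and astrocytes and of MEGF11 in rods and other GABAergic ACs made 24 results, refitted 522 times. An adjusted p under 0.05 was reached in 4 refits, all without a filter on low counts: MEGF11 in rods (senile minus infant -2.97, senile minus mature -2.73) and in other GABAergic ACs (mature minus infant 1.32, senile minus infant 1.66). The direction turned in 16. Those that left out no single retina were MEGF10 and MEGF11 in starburst nuclei, senile minus infant, without the filter (-0.053 and -0.067), MEGF10 in H1 nuclei, mature minus infant, with the stricter gate (-0.23), MEGF10 in H1 nuclei without Senile 2 and Senile 4 (0.26 from infancy, 0.052 from maturity) and MEGF10 in astrocytes, senile minus infant, without the nuclei of highest UMI count (0.0083).

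The number of genes called between stages moved by more than 1.5 times. From infancy to maturity, 20 genes in starburst nuclei became 34 with DESeq2, 161 without the filter, 31 with the Cell Ranger version as a term, 5 with the stricter gate and 11 without the nuclei of highest UMI count, and 1 gene in H1 nuclei became 2, 36 and 11 with DESeq2, without the filter and with the stricter gate. From infancy to the senile stage, 24 genes in starburst nuclei became 38, 183 and 7 under the same changes, and 1 gene in H1 nuclei became 6 with DESeq2, 92 without the filter, 6 with the stricter gate and 3 both with the version term and without the nuclei of highest UMI count. From maturity to the senile stage, 0 became 44 in starburst and 18 in H1 nuclei without the filter, and 1 in H1 nuclei with DESeq2. The cause was not tested. Without filtering far more genes of low count enter the fit.

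With 1 retina left out in turn, the log2 change ranged from -0.078 to 0.19 for MEGF10 and -0.034 to 0.15 for MEGF11 in starburst nuclei (senile minus infant), from -0.20 to 0.080 for MEGF10 in Müller glia (senile minus mature), from -0.16 to 0.030 for MEGF10 in astrocytes (senile minus infant) and from -0.59 to 0.081 for MEGF11 in rods (mature minus infant). The starburst balance, senile minus infant, ranged from -0.24 to 0.12 and was 0.19 with the stricter gate (exact permutation p = 0.698). Co-detection in starburst nuclei ranged from 0.069 to 0.12 and passed the threshold only without Senile 2 (exact p = 0.000854). In H1 nuclei it was 0.08 with the stricter gate and no longer passed. Called genes ranged from 12 to 20 in starburst nuclei (mature minus infant, 12 without Mature 5 and 13 without Infancy 4) and from 1 to 6 in H1 nuclei (senile minus infant, 1 only without Senile 4 or Senile 5, 6 without Mature 2 and 2 or 3 without any other retina). The balance between starburst and H1 nuclei kept its direction and side of the threshold in every left-out fit, from 2.70 to 2.90.

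Thinning to 2000 UMIs gave a MEGF11 UMI in 78.5% of starburst nuclei, 2.12% of Müller glia and 2.28% of astrocytes, and a MEGF10 UMI in 10.3% of starburst and 45.0% of H1 nuclei, 27.5% of Müller glia and 35.9% of astrocytes, leaving out 60 starburst, 84 H1, 3126 Müller and 579 astrocyte nuclei, with H1 nuclei of 13 and astrocytes of 14 retinas. Retinas with the same number were not shown to be paired, though many deviated together from their stage means. The correlation r of these deviations exceeded 0.1 in 12 of 15 same-number pairs in starburst nuclei, astrocytes, Müller glia and other GABAergic ACs. It did so in 11 of 15 in H1 nuclei and 8 of 15 in rods. The lowest same-number r was -0.34, and the medians of pairs with other numbers ran from -0.19 to -0.07. Equal numbers mostly share a version set, and the part of either was not tested. A replicate block raised the called genes of H1 nuclei (senile minus infant) from 1 to 3 and changed no call of MEGF10 or MEGF11. Depth limits several values, among them MEGF10 in starburst nuclei with 6 to 90 UMIs a retina, MEGF11 in rods with 0 to 52, and H1 nuclei of Senile 2 and Senile 3, with 16 and 10 nuclei.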
